A study of Mus musculus with 24 samples.

Results

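The genes described are Ccn3, Repin1, Olfm1, Cacnb2, Apod, Mir155hg, Chn2, Sspo and 1700025G04Rik, 9 of the 39017 genes in the count table, of which 27542 had at least 1 read. They were found by gene symbol, and they had been picked because they were higher in ITD than in WT in the NC_CD8 or the PDC cells. The differences between genotypes in those 2 subsets are therefore given as a description, with no test. The differences in the other 3 subsets, C_CD8, Esamhi and Esamlo, were not used to pick the genes and are tested.

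RNA was sequenced from dendritic cells sorted from the spleens of F1 mice of a C57BL/6 by FVB/N cross. ITD mice carried 1 copy of an internal tandem duplication in Flt3 (Flt3 ITD/+), and WT mice were Flt3 +/+. The labels name no other allele and no treatment, and give no age. The sorted subsets were non-canonical CD8+ cells (NC_CD8) and canonical CD8+ cells (C_CD8), with 3 libraries per genotype each, and PDC (read here as plasmacytoid dendritic cells), Esamhi and Esamlo cells (CD11b+ cells with a high or a low level of the surface protein Esam), with 2 libraries per genotype each. Replicates came from independent experiments, lettered A to D as batches, and each batch held 1 ITD and 1 WT library of each of its subsets, which gave 12 pairs over 24 libraries. The sources used here do not say whether cells of several mice were pooled in a library. The labels give the genotype of the mouse and name no driver that limits the allele to a cell type.

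Flt3 is the receptor tyrosine kinase for Flt3 ligand, the growth factor that drives dendritic cells to form from their progenitors in the bone marrow. An internal tandem duplication lengthens the juxtamembrane region of the receptor and lets it signal without ligand, and it is among the common mutations of acute myeloid leukaemia. Plasmacytoid cells make type I interferon, the canonical CD8+ cells (cDC1) cross-present antigen to CD8 T cells, and the CD11b+ cells (cDC2) mainly present antigen to CD4 T cells.

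Libraries held 11197145 to 22248404 counts. Levels are CPM, the count of a gene relative to the library total after TMM scaling, a correction for differences in composition. The subset labels were checked against defining genes: Siglech was at 4508 to 5386 CPM in PDC libraries and at most 291 CPM in the others, Xcr1 was at 574 to 1222 CPM in C_CD8 libraries and at most 148 CPM in the others, and Esam was at 57.7 to 68.8 CPM in Esamhi libraries and at most 14.3 CPM in the others. NC_CD8 libraries held Cd8a (243 to 383 CPM). The level of Flt3 itself does not show the duplication. It averaged 730 ± 29.0 CPM in ITD and 891 ± 70.3 CPM in WT NC_CD8 cells (SD, n = 3 each), and was lower on average in ITD in the other 4 subsets as well. These are bulk samples, in which fewer cells of a type and less RNA per cell cannot be told apart.

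One of the 9 genes, Mir155hg, is the host transcript of a microRNA precursor, whose sequence is shown because it is the product through which the gene is known to act. Mir155hg (chromosome 16, 84703167 to 84715245, plus strand, GRCm38; a long intergenic RNA in the annotation) contains the hairpin of miR-155 at chr16:84714140-84714204. In the hairpin from RefSeq (GRCm38.p6), both mature arms are in capitals. In the mature arms, the seed (bases 2 to 8), which pairs with target messenger RNAs, is in capitals.
mir-155 hairpin: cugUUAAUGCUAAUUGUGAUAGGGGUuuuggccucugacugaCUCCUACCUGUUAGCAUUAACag
mmu-miR-155-5p: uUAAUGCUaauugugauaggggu
mmu-miR-155-3p: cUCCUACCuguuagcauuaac
The count table held 0 reads on the hairpin itself in all 24 libraries. Its 65 bases lie in exons of Mir155hg on the same strand, and the sources used here do not say how shared bases were counted. Nothing is therefore read from this 0. The values below are those of the host transcript, and the mature microRNA was not measured.

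Sites for the 5p seed were then looked for in 12 genes listed as miR-155 targets. The letters AGCATTA, which pair with bases 2 to 8, were found in the longest annotated 3′ UTR of 10 of the 12 targets, against 8.27% of 21024 genes with a 3′ UTR. A match describes the letters and is not evidence that a site is used. The 12 genes were listed as targets beforehand, so that nothing is read from their share. Sites are shown with the match in capitals for 6 targets that dendritic cells express and that are known regulators: Inpp5d (the phosphatase SHIP1, chr1:87719838-87719844, plus strand), Socs1 (an inhibitor of cytokine signalling, chr16:10784207-10784213, minus strand), Spi1 (the transcription factor PU.1, chr2:91115437-91115443, plus strand), Bach1 (a transcriptional repressor, the first of 2 sites, chr16:87732188-87732194, plus strand), Jarid2 (a partner of Polycomb complexes, the first of 2 sites, chr13:44920093-44920099, plus strand) and Cebpb (a transcription factor, chr2:167690366-167690372, plus strand), where the coordinates are those of the match in GRCm38.
Inpp5d: tgtttttaaaaAGCATTAaagaaaaccat
Socs1: cgctgtgccgcAGCATTAagtgggggcgc
Spi1: ccgccggccatAGCATTAacccgtcgccc
Bach1: atgaacagtttAGCATTAagggttaattt
Jarid2: gattttgttttAGCATTAaactgttcaag
Cebpb: tttccgtttcgAGCATTAaagtgaagaca

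In NC_CD8 cells, 6 genes were higher in ITD by a factor of 3.35 or more: the secreted Ccn3, Olfm1 and Apod, the channel subunit Cacnb2, the nuclear factor Repin1 and the microRNA host Mir155hg. Chn2 was higher by a small amount there, and Sspo and 1700025G04Rik were at about the same level in both genotypes. In PDC cells, the clearest differences were those of Chn2, Sspo and 1700025G04Rik, all far lower in PDC than in any other subset. Every ITD library was above every WT library for 7 of the 9 genes in NC_CD8 cells, where this held for 5.94% of the 18093 genes tested, and for 7 of the 9 genes in PDC cells, where it held for 10.2%. The ITD library was the higher one in every pair for 7 of the 9 genes in each of these subsets, against 20.5% of all genes in NC_CD8 and 26.5% in PDC cells. By edgeR, 0.105% of all genes were called higher and 0.204% lower in NC_CD8 cells, and 0.0497% higher and 0.0111% lower in PDC cells (with the pair block 0.116% and 0.133%). Since the genes were picked on these differences, nothing is read from these counts.

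**Figure D1:**
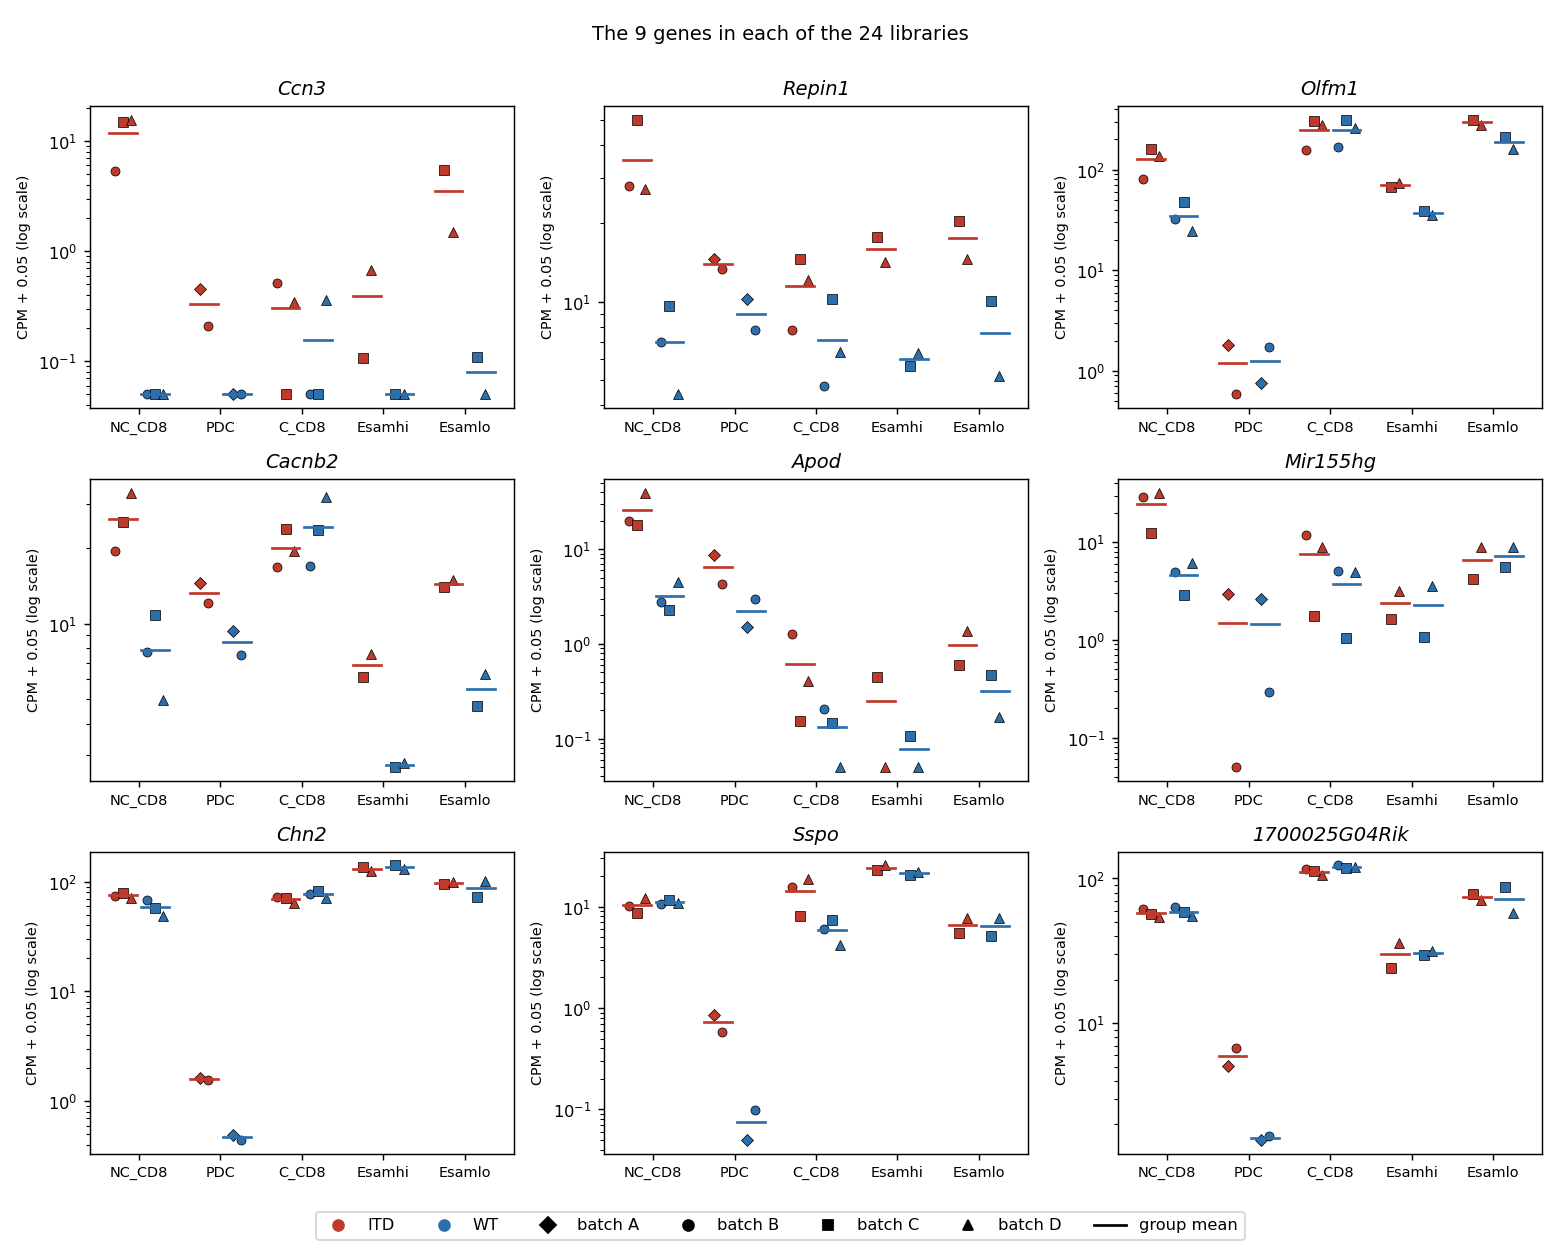
Level of each of the 9 genes in all 24 libraries, as CPM plus 0.05 on a log axis, by subset, with ITD (red) left of WT (blue), the batch as the shape of the point and the group mean as a line. Ccn3 has 86 to 264 reads in the ITD NC_CD8 libraries and 0 in the WT ones, and Chn2, Sspo and 1700025G04Rik are lowest in PDC cells of both genotypes.

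Ccn3 (chromosome 15, 54745702 to 54754039, plus strand) encodes a secreted matricellular protein of the CCN family, known as a regulator of haematopoietic stem cells. It had 86, 259 and 264 reads in the ITD NC_CD8 libraries of batches B, C and D, or 5.30, 14.7 and 15.6 CPM, against 0 reads in each of the 3 WT NC_CD8 libraries. Against a floor of 3 counts over the WT group, its mean level was at least 221-fold higher in ITD. The gene was thus detected in every ITD and no WT library of this subset.

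Elsewhere Ccn3 was close to the limit of detection, except in Esamlo cells. It had 60 and 23 reads (5.46 and 1.44 CPM) in ITD and 1 and 0 reads in WT Esamlo cells, a ratio of 103 with an exact 95% interval from 17.9 to 4102 that covers counting error only. PDC cells had 8 and 3 reads in ITD and 0 and 0 in WT, and Esamhi cells 1 and 10 reads in ITD and 0 and 0 in WT. In C_CD8 cells the genotypes overlapped, with 6, 0 and 5 reads in ITD and 0, 0 and 6 reads in WT. Over all 5 subsets, ITD was higher in 10 of 12 pairs. The exceptions were the C_CD8 pairs of batch C, with no reads in either library, and batch D, with 5 reads in ITD and 6 in WT.

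Olfm1 (chromosome 2, 28192992 to 28230736, plus strand) encodes olfactomedin 1, a secreted glycoprotein best known from neurons. It was at 81.1, 162 and 135 CPM in ITD NC_CD8 cells of batches B, C and D, against 32.5, 47.4 and 24.3 CPM in WT NC_CD8 cells, a 3.62-fold higher mean. Both Esam subsets had ITD above WT without overlap, at 66.5 and 74.0 CPM in ITD against 38.7 and 35.5 CPM in WT Esamhi cells, and at 313 and 275 CPM in ITD against 213 and 160 CPM in WT Esamlo cells. In C_CD8 cells, where it was high in both genotypes, it averaged 246 ± 77.8 CPM in ITD and 246 ± 70.9 CPM in WT (SD, n = 3 each). The ITD level in NC_CD8 cells thus lay between the WT levels of NC_CD8 and C_CD8 cells.

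Apod (chromosome 16, 31296192 to 31314808, minus strand) encodes apolipoprotein D, a secreted lipocalin that binds small lipids such as arachidonic acid. It was at 19.9, 17.9 and 39.6 CPM in ITD NC_CD8 cells, against 2.74, 2.21 and 4.43 CPM in WT NC_CD8 cells, 8.25-fold higher on average. PDC cells held 8.61 and 4.23 CPM in ITD and 1.47 and 2.90 CPM in WT. Both subsets showed no overlap of the genotypes. In the other subsets it was rare, with 0 to 21 reads in each of the 14 libraries. ITD was higher in 11 of 12 pairs, the exception being the Esamhi pair of batch D with no reads in either library.

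Cacnb2 (chromosome 2, 14603088 to 14987908, plus strand) encodes a beta subunit of voltage-gated calcium channels, which carries the pore-forming subunit to the membrane and tunes its gating. In NC_CD8 cells it was at 19.4, 25.4 and 33.2 CPM in ITD, against 7.65, 10.8 and 4.90 CPM in WT. Its mean was 3.35-fold higher in ITD NC_CD8 cells, 2.55-fold higher in ITD Esamhi cells (6.10 and 7.54 CPM in ITD, 2.63 and 2.72 CPM in WT), 2.64-fold higher in ITD Esamlo cells (13.9 and 14.9 CPM in ITD, 4.64 and 6.27 CPM in WT) and 1.58-fold higher in ITD PDC cells (14.5 and 12.04 CPM in ITD, 9.28 and 7.47 CPM in WT), in each without overlap. C_CD8 cells differed in pattern, with 16.7, 23.7 and 19.4 CPM in ITD against 16.96, 23.6 and 31.8 CPM in WT. In the annotation the gene shares 618 exon bases with Gm10849 on the opposite strand, and the strandedness of the counting is not given in the sources used here, so that reads of the 2 genes could be mixed. Gm10849 held at most 54 reads in any group, against 89 to 1430 for Cacnb2.

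Repin1 (chromosome 6, 48593883 to 48599082, plus strand) encodes a zinc finger protein that binds DNA, first described at an origin of replication. It was at 27.7, 49.99 and 27.1 CPM in ITD NC_CD8 cells of batches B, C and D, against 6.93, 9.55 and 4.36 CPM in WT NC_CD8 cells, a 5.03-fold higher mean. PDC cells held 14.6 and 13.3 CPM in ITD and 10.2 and 7.72 CPM in WT, and C_CD8 cells 7.70, 14.6 and 12.1 CPM in ITD and 4.68, 10.2 and 6.35 CPM in WT. The higher library in each genotype of C_CD8 and NC_CD8 cells was that of batch C.

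The Esam subsets followed the same direction for Repin1, at 17.7 and 14.2 CPM in ITD against 5.604 and 6.33 CPM in WT Esamhi cells, and at 20.4 and 14.5 CPM in ITD against 9.996 and 5.12 CPM in WT Esamlo cells. ITD was higher in 12 of 12 pairs, as for 1.09% of all genes tested. These include the NC_CD8 and PDC pairs, on which the genes were picked, so that nothing is read from that share. In the subsets not used to pick the genes, ITD was higher for Repin1 in all 7 pairs. This was true of 3.89% of all genes tested and of no other gene of the 9. WT levels of Repin1 were close in all 5 subsets, between 5.97 ± 0.51 CPM in Esamhi and 8.94 ± 1.74 CPM in PDC cells (SD, n = 2 each).

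Mir155hg was at 28.9, 12.4 and 32.2 CPM in ITD NC_CD8 cells of batches B, C and D, against 4.86, 2.81 and 6.10 CPM in WT NC_CD8 cells, 5.34-fold higher on average. In C_CD8 cells it was at 11.8, 1.73 and 8.83 CPM in ITD against 4.99, 1.006 and 4.94 CPM in WT, so that ITD was higher in each of the 3 pairs while the genotypes overlapped. The overlap came from batch C, which was lowest in both genotypes of both CD8+ subsets and of both Esam subsets. PDC cells gave 2.87 and 0 CPM in ITD and 2.58 and 0.246 CPM in WT. Esamlo cells were lower in ITD in both pairs, at 4.18 and 8.87 CPM in ITD and 5.47 and 8.98 CPM in WT.

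Of the 11 miR-155 targets that passed the filter, edgeR's quasi-likelihood test called 0 in any subset or in the mean of the 5 subsets. This held with and without a block on the pairs. Without a block, 19 of all genes were called higher (0.105%) and 37 lower (0.204%) in NC_CD8 cells, and 0.332% and 0.0276% in the mean of the 5 subsets. With the pair block the shares were 2.38% higher and 2.4% lower in NC_CD8 cells, and 4.49% and 2.34% in the mean. With 11 genes and such shares, the count is not read as a result about the targets. The median log2 fold change of the 11 targets over the mean of the 5 subsets was -0.08, against -0.0015 for all genes tested. In NC_CD8 cells, Inpp5d averaged 439 ± 25.2 CPM in ITD and 465 ± 84.7 CPM in WT, and Spi1 averaged 644 ± 169 CPM in ITD and 617 ± 194 CPM in WT (SD, n = 3 each). Jarid2 differed by a log2 fold change of 0.19 ± 0.14 (SE) and Cebpb by -0.41 ± 0.26, with adjusted p-values of 0.891 and 0.855.

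**Figure D2:**
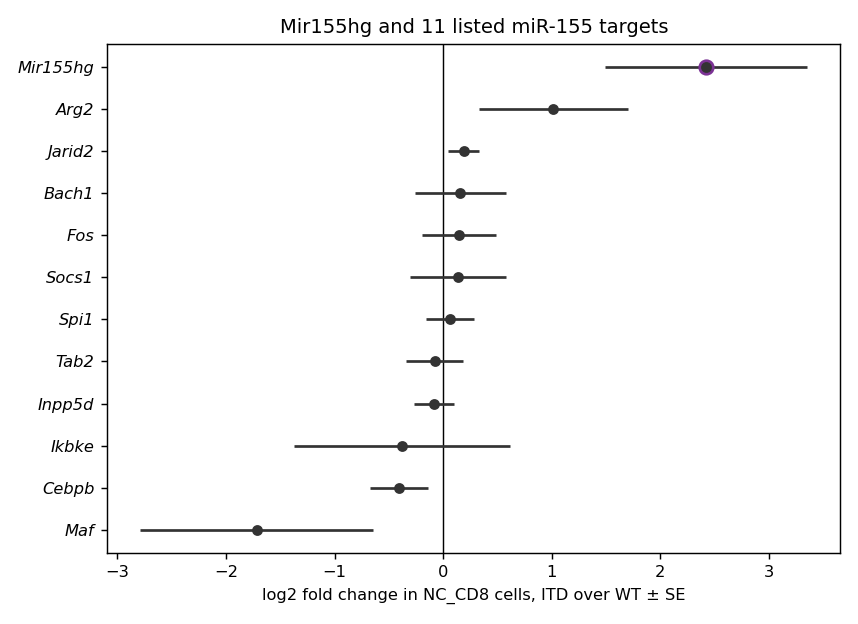
Log2 fold change (ITD over WT, horizontal axis) ± SE in NC_CD8 cells for Mir155hg (ringed), which was picked on this contrast, and for the 11 listed miR-155 targets that passed the filter, from edgeR without a block. Mir155hg is at 2.42 ± 0.93 and 9 of the 11 targets lie within 1.0 of 0, the others being Maf at -1.72 ± 1.07 and Arg2 at 1.02 ± 0.69.

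Chn2, Sspo and 1700025G04Rik showed another pattern, being low in PDC cells and higher in the other 4 subsets. Olfm1 shared the low level in PDC cells, but its ITD mean there was 0.965 times the WT mean. It had 35 and 10 reads in ITD and 16 and 34 reads in WT PDC cells. Chn2 (chromosome 6, 54039554 to 54301810, plus strand) encodes beta-chimaerin, a GTPase-activating protein that switches off Rac. It was at 1.56 and 1.498 CPM in ITD PDC cells and 0.444 and 0.393 CPM in WT PDC cells, from 31 and 28 reads in ITD and 10 and 8 reads in WT, and its mean was 3.65-fold higher in ITD. In the other subsets its libraries ranged from 48.7 to 140 CPM. There the ITD mean was 0.898 to 1.28 times the WT mean, and among them every ITD library was above every WT library in NC_CD8 cells alone (73.5, 79.4 and 71.1 CPM in ITD, 68.4, 57.3 and 48.7 CPM in WT). It shares 552 exon bases with 9130019P16Rik on the opposite strand, which had 63 reads in ITD and 22 reads in WT NC_CD8 cells.

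Sspo (chromosome 6, 48448229 to 48501250, plus strand) encodes SCO-spondin, a giant secreted protein with thrombospondin repeats, known from the subcommissural organ of the brain. It had 16 and 10 reads in ITD PDC cells and 0 and 1 read in WT PDC cells, a ratio of 28.9 with an exact 95% interval from 4.75 to 1185 for counting error only. C_CD8 cells also had every ITD library above every WT library, at 15.7, 7.9995 and 18.6 CPM in ITD against 5.98, 7.33 and 4.16 CPM in WT. The 2 libraries of batch C were close, and the difference was in batches B and D. In NC_CD8 cells it was at 10.1, 8.68 and 12.1 CPM in ITD and 10.4, 11.7 and 10.9 CPM in WT.

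1700025G04Rik (chromosome 1, 151852403 to 152090125, minus strand) is annotated as protein coding and has no role that is stated here. It was at 5.04 and 6.69 CPM in ITD PDC cells and 1.51 and 1.62 CPM in WT PDC cells, 3.74-fold higher on average. The other 4 subsets held 23.9 to 123 CPM. In C_CD8 cells every ITD library (116, 113 and 105 CPM) was below every WT library (123, 119 and 120 CPM), the reverse of the order in PDC cells.

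Since these 3 genes were far higher in the other subsets than in PDC cells, other genes with such a pattern were read in the PDC libraries. Plbd1, the gene most like 1700025G04Rik over the 24 libraries, was at 68.3 to 89.3 CPM in ITD and 49.7 to 54.6 CPM in WT PDC cells, 1.51-fold higher in ITD, against 1215 to 3381 CPM in the other subsets. Serpina3g, the gene most like Chn2, was 1.30-fold higher in ITD PDC cells (32.7 to 34.7 CPM in ITD, 22.2 to 29.7 CPM in WT), and Adam23, among the 3 most like Sspo, was 2.41-fold higher (178 reads in ITD, 82 in WT). Not all such genes were higher in ITD PDC cells, the ITD mean of Olfm1 being 0.965 times its WT mean. Of the 3 genes most like Olfm1, Aph1b was at 0.971, Ctbp2 at 0.916 and Rbpj at 1.03 times the WT mean there. Among genes that define cDC1 and cDC2 cells, Xcr1 was at 1.44 to 5.74 CPM in ITD and 1.38 to 1.47 CPM in WT PDC cells, and Clec4a4 at 0.151 to 0.268 CPM in ITD and 0.222 to 0.246 CPM in WT PDC cells, while Clec9a was at 67.2 to 78.4 CPM in ITD and 53.1 to 61.4 CPM in WT PDC cells.

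Of the 8 cDC1 genes listed, 5 had a higher mean in ITD PDC cells, and their summed level was 4315 to 6946 CPM in ITD and 4289 to 6634 CPM in WT. Irf8, which plasmacytoid cells also express, made up 3829 to 6511 CPM of this sum in ITD and 3763 to 6198 CPM in WT. Of the 8 cDC2 genes, 3 had a higher mean in ITD PDC cells, and their sum was 1640 to 1677 CPM in ITD and 1262 to 1368 CPM in WT, with Cd4 at 860 to 927 CPM in ITD and 599 to 641 CPM in WT. The part of conventional cells in the PDC values of Chn2, Sspo and 1700025G04Rik was not tested. The summed stromal genes were high in the PDC libraries of batch B, at 100.6 CPM in ITD and 206 CPM in WT, against 1.16 CPM in ITD and 1.73 CPM in WT in batch A, and lay at 10.7 CPM or less in all other libraries.

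In NC_CD8 cells, markers of other cells differed between genotypes beside the 6 genes. All 8 cDC1 genes listed had a lower mean in ITD, and their summed level was 622 to 680 CPM in ITD and 905 to 1604 CPM in WT. All 10 T cell genes and all 9 NK cell genes were lower in ITD as well, at 20.7 to 32.7 CPM in ITD against 46.3 to 123 CPM in WT for the T cell genes and 83.1 to 108 CPM in ITD against 135 to 199 CPM in WT for the NK cell genes. Of the 8 cDC2 genes, 5 had a higher mean in ITD, and their sum was 1130 to 1421 CPM in ITD and 860 to 1140 CPM in WT. Endothelial genes summed to 198, 217 and 290 CPM in ITD and 173, 168 and 205 CPM in WT in batches B, C and D, higher in ITD in each pair, with 5 of 10 genes higher. Plasma cell genes summed to 172 to 195 CPM in ITD and 221 to 300.02 CPM in WT, with 4 of 7 genes lower. Of the B cell genes 10 of 12 were lower in ITD (69.4 to 122 CPM in ITD, 96.7 to 160 CPM in WT), and of the erythroid and platelet genes 8 of 9 (6.04 to 27.5 CPM in ITD, 5.44 to 224 CPM in WT). The part of these cells in the differences of the 6 genes was not tested. The 12 stromal genes, of which 8 were at 0 reads in ITD and 6 in WT, summed to 6.58 to 8.94 CPM in ITD and 4.18 to 6.84 CPM in WT.

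The subsets that were not used to pick the genes allow tests. Their pairs come from batches B, C and D, the same experiments that gave the NC_CD8 pairs. They are thus not an independent repeat of the experiments on which the genes were picked. The fits also treat pairs of different subsets from the same batch as independent, which the p-values do not cover. Averaged over C_CD8, Esamhi and Esamlo cells, Repin1 was higher in ITD by a log2 fold change of 1.11 ± 0.24 (SE) and Cacnb2 by 0.82 ± 0.19. Neither passed in edgeR's quasi-likelihood test on the 10 group means, with Benjamini-Hochberg adjusted p-values over all genes of 0.130 and 0.162. Libraries of a pair deviated together, with a correlation across genes above 0.1 in all 12 pairs, and a block on the pair removes that shared deviation. In subsets with 2 libraries per genotype, both pairs give the same value by construction (0.646 in PDC, 0.319 in Esamhi and 0.134 in Esamlo cells). With the pair block both rose in edgeR's test, Repin1 by 1.13 ± 0.11 (adjusted p = 0.000418) and Cacnb2 by 0.83 ± 0.18 (adjusted p = 0.0312). Ccn3 was past the threshold as well (adjusted p = 0.0481), but it had 0 to 6 reads in every WT library and passed the filter on low counts through ITD libraries alone, so that this is not read as a call and its reads above stand as the description.

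Counted over the 9 genes, the mean of the 3 subsets gave 0 calls without a block, where 0.0608% of all genes were called higher and 0.0% lower, and 3, Ccn3 included, with the pair block, where 2.11% were called higher and 0.553% lower. DESeq2's Wald test put the same 3 among the 119 genes it called, against 11 by edgeR without a block. At an unadjusted p under 0.05, edgeR without a block gave 6 of the 9, Ccn3 included, where 1158 of 18093 genes reached that level in either direction. The median log2 fold change over all genes in this comparison was -0.0042. Apod at 2.29 ± 0.75 and Olfm1 at 0.53 ± 0.23 did not pass in edgeR, with adjusted p-values of 0.463 and 0.726 without a block and 0.110 and 0.0699 with it, and neither did Sspo at 0.50 ± 0.20. Mir155hg at 0.31 ± 0.62, Chn2 at -0.02 ± 0.09 and 1700025G04Rik at -0.03 ± 0.11 lay within 1 SE of 0.

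**Figure D3:**
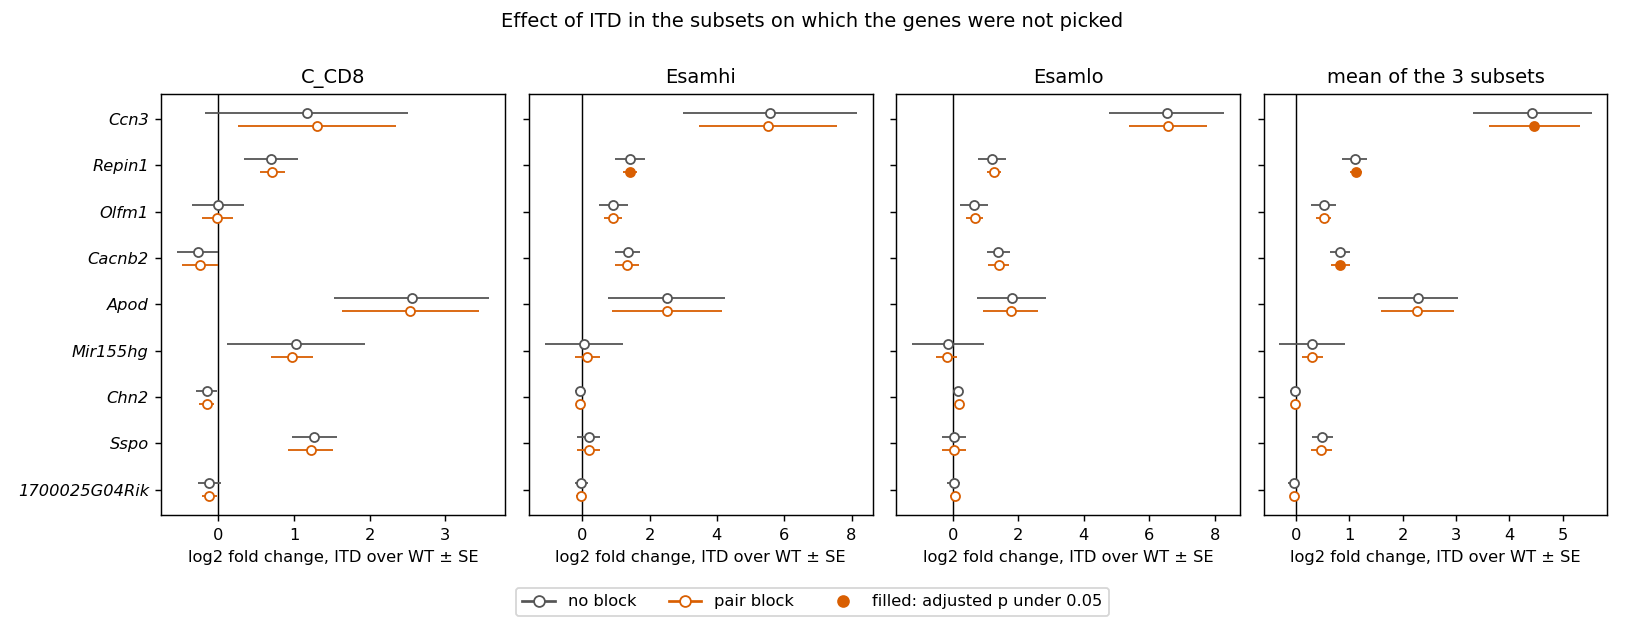
Log2 fold change (ITD over WT) ± SE of the 9 genes in C_CD8, Esamhi and Esamlo cells and in their mean, from edgeR without a block (grey) and with the pair block (orange), with filled points where the adjusted p was under 0.05. The horizontal scale differs between panels. The filled points are Repin1 in Esamhi cells and Repin1, Cacnb2 and Ccn3 in the mean of the 3 subsets, all with the pair block. Ccn3 passed the filter through ITD libraries alone.

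In the 3 subsets not used for the choice, every ITD library was above every WT library for 1 of the 9 genes in C_CD8 (4.7% of all genes), 5 in Esamhi (15.2%) and 5 in Esamlo cells (16.3%). ITD was the higher library in every pair for 4 of the 9 in C_CD8 (16.7%), 5 in Esamhi (26.4%) and 5 in Esamlo cells (25.8%). Ccn3, which passed the filter through ITD libraries alone, is among the 5 in Esamhi and the 5 in Esamlo cells in both counts.

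Within single subsets, 0 of the 9 genes passed without a block in C_CD8, Esamhi or Esamlo cells. Of all genes, 0.0166%, 0.0% and 0.00553% were called higher there, and 0.0% lower in each. In the same test, 2, 4 and 3 of the 9 had an unadjusted p under 0.05 (787, 303 and 643 of all genes). Ccn3 is among those of Esamhi and of Esamlo cells. With the pair block Repin1 rose in Esamhi cells by 1.41 ± 0.21 (adjusted p = 0.0398 in edgeR), 1 of 8 genes called higher there (0.0442%), with 0.00553% lower. In C_CD8 and Esamlo cells the pair block called 0 of the 9 (1.19% and 0.0387% of all genes higher, 0.0442% and 0.0111% lower), with Repin1 at adjusted p-values of 0.0734 and 0.0612. Sspo in C_CD8 cells was higher in ITD by 1.27 ± 0.30, which did not pass in edgeR (adjusted p = 0.195, and 0.0891 with the pair block) but was among 98 genes called by DESeq2 (adjusted p = 0.0107). Of the 24 runs that left out 1 library, edgeR called Sspo in 1, that without the ITD C_CD8 library of batch C (log2 fold change 1.55, adjusted p = 0.0336). The pair of that library had the smallest difference of the C_CD8 pairs. In the other runs it was not called, with edgeR adjusted p-values up to 0.709.

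The estimated log2 fold change of Cacnb2 (ITD over WT) was -0.27 ± 0.27 in C_CD8 cells, 1.35 ± 0.36 in Esamhi cells and 1.40 ± 0.35 in Esamlo cells. The difference of the ITD effect, C_CD8 minus the mean of the 2 Esam subsets, was -1.65 ± 0.37, with an unadjusted p of 0.000315 that did not pass the adjustment over all genes in edgeR (adjusted p = 0.9999, and 0.128 with the pair block). No gene of the table passed in this comparison without a block (0.0%), and 0 of the 9 genes passed with it (0.122% of all genes higher and 0.0% lower). At an unadjusted p under 0.05 there were 449 genes, 3 of them among the 9, Ccn3 included. DESeq2 called 2 genes and none of the 9.

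**Figure D4:**
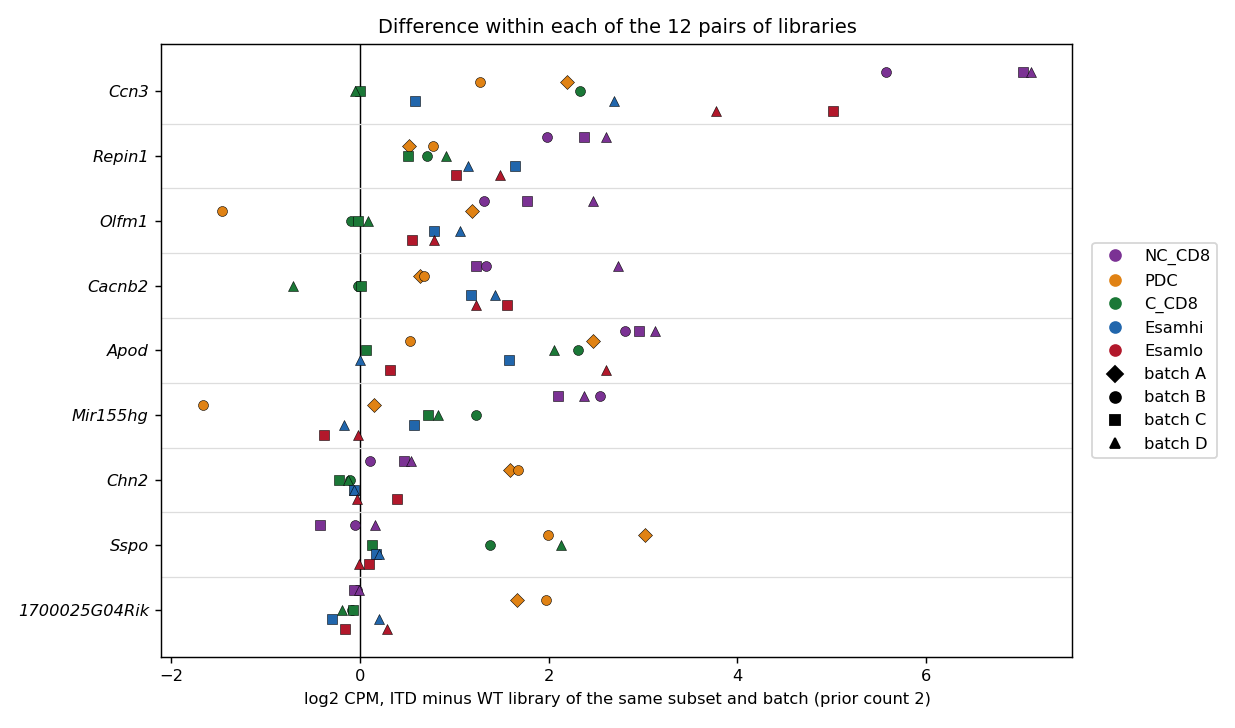
Difference in log2 CPM (prior count 2) between the ITD and the WT library of each of the 12 pairs, for the 9 genes, with the subset as colour and the batch as shape. Repin1 lies above 0 in 12 of 12 pairs, Apod in 11, Ccn3 and Cacnb2 in 10, and 1700025G04Rik in 4, of which 2 are the PDC pairs.

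WT levels of the genes differed between the 3 subsets not used for the choice. Cacnb2 was higher in C_CD8 than in Esamhi cells by 3.17 ± 0.36 on the log2 scale (24.1 ± 7.44 CPM in C_CD8, n = 3, and 2.68 ± 0.07 CPM in Esamhi, n = 2, SD, edgeR adjusted p = 4.96e-06) and than in Esamlo cells by 2.14 ± 0.33 (5.45 ± 1.15 CPM in Esamlo, adjusted p = 0.000204). Olfm1 was higher in C_CD8 (246 ± 70.9 CPM) than in Esamhi cells (37.1 ± 2.26 CPM) by 2.73 ± 0.43 (edgeR adjusted p = 0.000181). 1700025G04Rik was highest in C_CD8 (121 ± 2.23 CPM), above Esamhi by 1.99 ± 0.19 (edgeR adjusted p = 7.76e-07) and above Esamlo by 0.73 ± 0.18 (adjusted p = 0.00887, and 0.216 without the batch D WT library of Esamlo). Chn2 and Sspo ran the other way, lower in C_CD8 than in Esamhi cells, with log2 fold changes of -0.81 ± 0.15 (edgeR adjusted p = 0.00066) and -1.86 ± 0.32 (adjusted p = 0.000436).

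In these WT comparisons, 3 of the 9 genes were called higher and 2 lower in C_CD8 against Esamhi cells, where 11.9% of all genes were called higher and 11.6% lower. Against Esamlo cells, 2 were higher and 0 lower in C_CD8, with 7.12% and 8.83% of all genes. Between the 2 CD11b+ subsets, Sspo was higher in Esamhi than in Esamlo cells by 1.72 ± 0.37 (edgeR adjusted p = 0.0378), and Olfm1 and 1700025G04Rik were lower, with log2 fold changes of -2.33 ± 0.45 (adjusted p = 0.0207) and -1.26 ± 0.20 (adjusted p = 0.00472), where 0.133% and 0.525% of all genes were called. These 3 calls rest on 2 libraries a group, and 0 of them were made when either Esamhi or the batch C Esamlo WT library was left out. Of the 3, Sspo lost its call most often, in 9 of the 24 runs that left out 1 library, with edgeR adjusted p-values up to 0.350 over these runs. With the batch as a block, Chn2 was also called higher in Esamhi than in Esamlo cells (0.64, edgeR adjusted p = 0.0173), and Mir155hg was called lower in Esamhi than in Esamlo (-1.86, adjusted p = 0.0276) and in C_CD8 than in Esamlo cells (-1.47, adjusted p = 0.0134). Over all genes the batch block called 2.63% higher and 3.74% lower in Esamhi against Esamlo cells, 13.6% and 14.9% in C_CD8 against Esamlo cells, and 17.8% each way in C_CD8 against Esamhi cells.

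The order of the WT means over the 5 subsets differed between the genes. Repin1 ran from Esamhi (5.97 CPM) through NC_CD8 (6.95 CPM), C_CD8 (7.08 CPM) and Esamlo (7.56 CPM) to PDC cells (8.94 CPM), each neighbour within the larger SD of the next. Mir155hg ran from PDC (1.41 CPM) through Esamhi (2.26 CPM), C_CD8 (3.65 CPM) and NC_CD8 (4.59 CPM) to Esamlo cells (7.23 CPM), with neighbours within the larger SD except NC_CD8 and Esamlo. Apod was highest in NC_CD8 (3.13 ± 1.16 CPM), next to PDC cells (2.18 ± 1.014 CPM), which lay within 1 SD, and at or under 0.269 CPM elsewhere. For Cacnb2, NC_CD8 (7.78 ± 2.94 CPM) and PDC (8.38 ± 1.28 CPM) were neighbours within 1 SD, between Esamlo and C_CD8 cells.

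WT levels of Ccn3 give no order, with 0 reads in PDC, NC_CD8 and Esamhi, 6 in C_CD8 and 1 in Esamlo cells. PDC cells were lowest for Olfm1 (1.19 ± 0.68 CPM), Chn2 (0.419 ± 0.04 CPM), Sspo and 1700025G04Rik. Esamhi cells held the most Chn2 (135 ± 7.35 CPM) and Sspo (21.1 ± 1.27 CPM), and C_CD8 cells the most 1700025G04Rik. For Olfm1, C_CD8 (246 ± 70.9 CPM) and Esamlo cells (186 ± 37.5 CPM) were the highest and lay within the larger SD of each other (edgeR adjusted p = 0.540). NC_CD8 and Esamhi cells were neighbours within 1 SD for Olfm1 (34.7 ± 11.7 CPM in NC_CD8 and 37.1 ± 2.26 CPM in Esamhi), and C_CD8 and Esamlo cells for Chn2 (76.9 ± 6.21 CPM in C_CD8 and 86.6 ± 20.1 CPM in Esamlo) and Sspo (5.82 ± 1.59 CPM in C_CD8 and 6.42 ± 1.84 CPM in Esamlo). Per kb of exon, Olfm1 had the highest WT level of the 9 genes in C_CD8 cells, at 69.2 CPM per kb, and Chn2 in Esamhi cells, at 23.3 CPM per kb.

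Genes next to Repin1 were examined because 2 of the 9 genes, Sspo and Repin1, lie 92.6 kb apart on chromosome 6. Gm5111 (48589445 to 48590584, plus strand), an RNA annotated as a processed transcript that ends 3.30 kb before the start of Repin1, had 8, 21 and 34 reads in ITD NC_CD8 cells and 0, 0 and 0 reads in WT NC_CD8 cells. It had 12 and 9 reads in ITD and 2 and 0 reads in WT Esamhi cells, and 3 and 8 reads in ITD and 0 and 0 reads in WT Esamlo cells. PDC cells had 4 and 1 reads of it in ITD and 3 and 0 reads in WT, and C_CD8 cells 0, 1 and 0 reads in ITD and 0, 0 and 0 reads in WT. Gm5111 passed the filter on low counts through ITD libraries alone, so that these reads are given as a description with no test. In the annotation, Gm45021 on the same strand runs from within Gm5111 across Repin1 into Zfp775, and has no counts of its own. Whether reads of these genes come from shared transcripts was not tested.

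Further from Repin1, Atp6v0e2 (a subunit of the vacuolar proton pump) was at 7.71, 13.3 and 5.30 CPM in ITD NC_CD8 cells and 2.26, 3.79 and 2.21 CPM in WT NC_CD8 cells. Its log2 fold change without a block was 1.67, and it was called only with the pair block (adjusted p = 0.125 without it and 0.0140 with it, in edgeR). Of the 11 tested genes that lie within 100 kb of Repin1, 0 were called in any subset or in the mean of the 5 subsets without a block, and 4 with the pair block: Gm5111, whose call is not read for the reason given, Atp6v0e2 and the zinc finger gene Zfp775 higher, and Gimap4 (a GTPase of lymphocytes) lower. The share called with the pair block over all genes was 2.38% higher and 2.4% lower in NC_CD8 cells and 4.49% higher and 2.34% lower in the mean of the 5 subsets. These are shares of single comparisons, while the 4 were counted over all of them. The share of all genes called in any of them was not counted, so that the 2 cannot be set against each other. Zfp775 was called in the mean of the 5 subsets alone (edgeR adjusted p = 0.0241). Next to the other genes, Arl5b near Cacnb2 and Zfp467, which lies 2.40 kb from the start of Sspo on the opposite strand, were called higher with the pair block and not without it. Apart from Repin1 itself, which is a neighbour of Sspo and was picked on these data, no tested gene within 100 kb of any of the 9 was called without the block.

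Relatives of the 9 genes were read in the same comparisons. In the lists of families with the 9 genes left out, without a block only 1 gene was called in any subset or in the mean of the 5 subsets: Cacna1e, the pore of the R-type calcium channel, fell in NC_CD8 cells by 2.11 ± 0.42 on the log2 scale (5.70 ± 1.86 CPM in ITD and 24.7 ± 7.57 CPM in WT, SD, n = 3 each, edgeR adjusted p = 0.0339). Of all genes, 0.105% were called higher and 0.204% lower in NC_CD8 cells without a block. With shares this low, the small number of calls is not read as a result about the families. Of the 13 calcium channel subunits tested, the mean of the 5 subsets gave 0 calls without a block, where 0.332% of all genes were called higher and 0.0276% lower. With the pair block, Cacnb3, Cacnb1 and Cacna1s rose there, by 0.84, 0.54 and 0.35, and Cacna1e fell by 0.58 (adjusted p = 0.0146, 0.0110, 0.00601 and 0.00256 in edgeR), where the block called 4.49% of all genes higher and 2.34% lower.

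Cacnb1, another beta subunit, was at 10.2 to 10.3 CPM in ITD and 6.54 to 6.62 CPM in WT PDC cells, and at 12.1 to 14.3 CPM in ITD and 7.78 to 7.85 CPM in WT Esamhi cells. Of 12 Rac GTPases and their GTPase-activating proteins, 0 were called without a block, and with the pair block Rac2 fell by 0.58 in NC_CD8 cells (110 ± 15.1 CPM in ITD and 164 ± 13.4 CPM in WT, SD, n = 3 each, edgeR adjusted p = 0.00361 with the block and 0.125 without) and Arhgap24 by 2.77 (adjusted p = 0.0453 with the block), where the block called 2.38% of all genes higher and 2.4% lower. Rac2 also fell with the pair block in the mean of the 5 subsets, by 0.26 (edgeR adjusted p = 0.00576, and 0.166 without the block). No gene was called, with or without the block, among the 3 CCN relatives, 4 olfactomedin relatives, 6 lipocalins and 5 thrombospondin-repeat proteins tested. With so few genes and such shares of all genes called, this is not read as a result about these families. The other CCN genes were rare in NC_CD8 cells, with at most 23 reads over the 3 ITD libraries.

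Likeness was measured as Pearson's r of log2 CPM over the 24 libraries, which share their subsets and batches, and is given as a description. The gene most like Ccn3 among all genes tested was Repin1 (r = 0.81), followed by Gm5111 (0.79) and Vash1 (0.78). Gm5111 was also the gene most like Repin1 (0.82), ahead of Ccn3. For Cacnb2 it was its antisense neighbour Gm10849 (0.84), for which shared reads cannot be told apart.

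The other genes followed the differences between subsets more closely. Olfm1 was most like Aph1b (r = 0.97), Chn2 like Serpina3g (0.98), 1700025G04Rik like Plbd1 (0.97), Sspo like Dapk2 (0.95), Apod like Rgs7bp (0.92) and Mir155hg like Dusp3 (0.91) and Ets2 (0.90). Among the 9 genes themselves, the 36 values of r ran from -0.36 to 0.95 with a median of 0.31, and 7 were over 0.7. Of these 7, the pair Ccn3 and Repin1 was the only one without Olfm1, Chn2, Sspo or 1700025G04Rik. By the 10 group means in place of libraries, 7 of the 27 genes named as most like a gene of the 9 stayed among the top 3.

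RefSeq promoters (GRCm38.p6, 250 bases before to 50 bases after the start) were available for 7 of the 9 genes, 12 promoters in all. None of the 12 held, on either strand, the letters of a STAT site (TTCNNNGAA), an AP-1 site (TGANTCA), an RBPJ site (TGGGAA) or an interferon-stimulated response element, which were found in 8.30%, 7.81%, 25.6% and 3.44% of 32851 promoters. This describes the letters of these windows only. The single Mir155hg window (chr16:84712773-84713072) lies within the annotated gene and does not cover its annotated start at 84703167, so that the letters around that start were not read.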

How the data were processed

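RNA of 24 sorted spleen libraries was made into cDNA with a SMART-seq v4 kit, per the labels' protocols. The authors deposited raw read counts per gene. The submitters' processing notes name bcl2fastq 1.8.4, Bowtie2, DESeq2 1.8.2 and mm10, while no source used here names the read counter, its annotation or its use of strand.

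Counts were TMM-scaled and tested with edgeR 4.0.16 (quasi-likelihood, R 4.3.3, limma 3.58.1) on 10 group means over 24 libraries. filterByExpr (minimum count 10) left 18093 genes, all 9 described among them, and Benjamini-Hochberg adjusted p under 0.05 was a call. Alternatives were DESeq2 1.42.0, DESeq2 size factors, no filter, fewer libraries, single libraries left out, and a block on pairs of the same subset and batch. The libraries of a pair deviated together (r across genes 0.134 to 0.646 in 12 pairs, with 1 shared value where a subset had 2 pairs). Replicates come from independent experiments, per the series' design text. No 2 replicates agreed within sampling noise. Intervals and floors cover counting error only. The script was tested on simulated data.

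Genes and lists were chosen with earlier results of these data known. The genes named are the 9, Flt3, family genes called in any subset or the mean of 5 subsets, neighbours within 100 kb, and the 3 most alike by correlation. Marker genes and uncalled miR-155 targets were named from their lists after their values were seen. Positions are from GENCODE (GRCm38), sequences from RefSeq (GRCm38.p6) and figures from matplotlib 3.10.9.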

Additional observations from a re-analysis of the deposited data

Results flagged for a closer look

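In 3 genes every pair of libraries moved one way in one subset and the opposite way in another. With 2 or 3 pairs a subset, the differences between subsets were not tested. Values are mean pair differences in log2 CPM, ITD minus WT. Mir155hg was at 2.34 in NC_CD8 and -0.20 in Esamlo cells, a gap of 2.54, and at 0.92 in C_CD8 cells, a gap of 1.12 to Esamlo cells. Chn2 was at 1.63 in PDC cells, against -0.15 in C_CD8 (gap 1.78) and -0.06 in Esamhi cells (gap 1.69). It was at 0.37 in NC_CD8 cells, which left gaps of 0.53 to C_CD8 and 0.44 to Esamhi cells. 1700025G04Rik was at 1.82 in PDC cells, against -0.04 in NC_CD8 (gap 1.86) and -0.12 in C_CD8 cells (gap 1.94). The PDC and NC_CD8 differences include those on which the genes were picked.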

How the results depend on the processing

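Without a filter, 13 genes were called in C_CD8 and 20 in the mean of C_CD8, Esamhi and Esamlo cells (3 and 11 with it). The pair block as a replicate block called 223, 9 and 9 genes in C_CD8, Esamhi and Esamlo cells, 482 in their mean and 22 in the difference of effects, and 1 of the 9 genes in Esamhi cells and 3 in the mean. DESeq2 called 98, 2 and 2 genes, 119 in the mean and 2 in the difference, with 1 of the 9 in C_CD8 cells and 3 in the mean. With only the subsets compared, 0 genes were called in C_CD8 and 0 in Esamlo cells. In WT, the batch block called 6429 genes in C_CD8 against Esamhi, 5166 in C_CD8 against Esamlo and 1151 in Esamhi against Esamlo cells (4255, 2886 and 119 without it), with 5 of the 9 in the last. That comparison gave 302 genes with only the subsets compared and 437 by DESeq2.

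Leaving out 1 library at a time gave 0 to 23 genes called in C_CD8, 0 to 1 in Esamlo, 1 to 19 in the mean and 0 to 2 in the difference of effects. In WT it gave 2132 to 4429 genes in C_CD8 against Esamhi, 1222 to 3090 in C_CD8 against Esamlo and 4 to 135 in Esamhi against Esamlo cells, and 0 to 1 of the 9 genes in C_CD8 cells, 1 to 2 in C_CD8 against Esamlo and 0 to 3 in Esamhi against Esamlo cells.

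Directions turned where log2 fold changes were near 0 or reads few. Olfm1 in C_CD8 cells was at -0.0026 without a filter, -0.011 with the block and -0.21 to 0.25 with 1 library left out. In the same runs Esamhi cells gave Apod -2.39 to 4.90, Mir155hg -0.59 to 1.17 and 1700025G04Rik -0.34 to 0.24. Esamlo cells gave Mir155hg -0.79 to 0.30, Chn2 -0.055 to 0.42, Sspo -0.23 to 0.37 and 1700025G04Rik -0.23 to 0.36. The mean gave Chn2 -0.091 to 0.068 and 1700025G04Rik -0.14 to 0.074, and the difference of effects gave Apod -0.79 to 2.85 and 1700025G04Rik -0.29 to 0.036. In WT, C_CD8 against Esamhi gave Repin1 -0.11 to 0.44. C_CD8 against Esamlo gave Ccn3 -2.38 to 3.95, Repin1 -0.50 to 0.47 (0.058 with the batch block), Chn2 -0.39 to 0.087 and Sspo -0.40 to 0.19, and Esamhi against Esamlo gave Repin1 -0.74 to 0.22. The cause was not tested.

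In the mean of the 3 subsets, Repin1 kept 0.97 to 1.29, Cacnb2 0.75 to 0.91 and Ccn3 3.62 to 5.74 with 1 library left out, with edgeR adjusted p-values of 0.0907 to 0.408, 0.104 to 0.499 and 0.162 to 0.936. The median log2 fold change over all genes was at most 0.0644 in size under every setting run. Ccn3 rests on few reads outside NC_CD8 cells. Apod does so in C_CD8, Esamhi and Esamlo cells, and Sspo in PDC cells.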
